A study of Homo sapiens with 17 samples.

Results

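FOXA1 and FOXA2, both expressed without their carboxy-terminal domain (CTD), were set side by side through their Flag ChIP-seq peak lists in U2OS, a human osteosarcoma cell line. The members are all peaks of the combined lists of the groups FOXA1dCTD (50105 peaks) and FOXA2dCTD (52866 peaks) on chromosomes 1 to 22 and X, 102971 of the 208775 peaks in the 8 combined lists of the series. The series has 17 samples, namely 8 groups with a Flag-tagged FOXA or SOX2 protein, 2 biological replicates in each, and an input. FOXA1dCTD and FOXA2dCTD are CTD deletion mutants, and FOXA1FL and FOXA2FL, used here as a comparison, are the full-length proteins. Each protein came from a stable U2OS line with a Tet-on construct and was switched on by 4 days of doxycycline, 500 ng/ml by the treatment label (the extraction protocol gives the same number per microlitre). The labels do not say whether a line is 1 clone or a pool, which residues were deleted, or how much protein each line made, and the Flag antibody reads the introduced protein alone. Markers of the cell line could not be checked because RNA was not measured in these libraries.

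FOXA1 and FOXA2 are paralogous pioneer factors. Their winged-helix forkhead domain binds a short DNA element and can do so on nucleosomes, and the CTD, which lies outside the forkhead domain, has been linked to contact with core histones. FOXA2 is known for its role in definitive endoderm, liver and gut, and FOXA1 also for opening the sites that oestrogen and androgen receptors use in breast and prostate epithelium. U2OS is a mesenchymal line, so these are sites bound by an introduced factor in a foreign chromatin setting.

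Promoters are the only stretches for which sequence could be shown, and 5 of them follow, classed by the summits that lie inside the window. Each is the RefSeq GRCh38.p14 window from 250 bases before to 50 bases after the start of a protein-coding gene, 5′ to 3′ on the strand of the gene. Capitals mark every match to the forkhead letters searched, TGTTTAC and TGTTTGC or their reverse complements GTAAACA and GCAAACA, which do not overlap each other. DUSP11 (an RNA phosphatase), RSRC1 (a splicing-related protein) and EXPH5 (a Rab27 effector) are the 3 promoters with a summit of both lists and a match that ranked highest by strength. NEDD4 (a ubiquitin ligase) holds the strongest summit among windows with a FOXA1dCTD summit alone. LIN52 (a subunit of the DREAM complex) holds the strongest among windows with a FOXA2dCTD summit alone. A peak of the other list with its summit outside the window does not count here.
DUSP11, chr2:73780100-73780399, minus strand: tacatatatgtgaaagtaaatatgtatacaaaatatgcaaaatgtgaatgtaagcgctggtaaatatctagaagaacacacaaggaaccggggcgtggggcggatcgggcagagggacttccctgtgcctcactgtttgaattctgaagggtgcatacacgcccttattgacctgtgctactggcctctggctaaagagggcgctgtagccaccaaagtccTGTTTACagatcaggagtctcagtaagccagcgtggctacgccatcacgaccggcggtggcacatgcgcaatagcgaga
RSRC1, chr3:158109839-158110138, plus strand: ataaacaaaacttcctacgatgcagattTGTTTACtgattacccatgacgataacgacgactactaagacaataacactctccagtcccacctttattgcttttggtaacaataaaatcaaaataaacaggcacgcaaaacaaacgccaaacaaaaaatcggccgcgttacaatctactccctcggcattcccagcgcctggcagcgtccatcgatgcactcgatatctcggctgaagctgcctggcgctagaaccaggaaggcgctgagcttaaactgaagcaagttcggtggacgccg
EXPH5, chr11:108593719-108594018, minus strand: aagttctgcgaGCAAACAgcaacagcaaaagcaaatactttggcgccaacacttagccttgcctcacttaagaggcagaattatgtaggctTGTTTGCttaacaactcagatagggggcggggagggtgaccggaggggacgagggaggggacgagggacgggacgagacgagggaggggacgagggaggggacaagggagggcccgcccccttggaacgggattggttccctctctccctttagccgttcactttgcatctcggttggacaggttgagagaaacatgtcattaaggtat
NEDD4, chr15:55917087-55917386, minus strand: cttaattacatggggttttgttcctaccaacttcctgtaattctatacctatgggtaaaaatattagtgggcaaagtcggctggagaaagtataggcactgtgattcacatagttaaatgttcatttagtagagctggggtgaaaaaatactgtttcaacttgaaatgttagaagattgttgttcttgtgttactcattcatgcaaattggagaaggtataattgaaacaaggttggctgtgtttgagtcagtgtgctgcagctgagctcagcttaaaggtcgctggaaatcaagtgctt
LIN52, chr14:74084706-74085005, plus strand: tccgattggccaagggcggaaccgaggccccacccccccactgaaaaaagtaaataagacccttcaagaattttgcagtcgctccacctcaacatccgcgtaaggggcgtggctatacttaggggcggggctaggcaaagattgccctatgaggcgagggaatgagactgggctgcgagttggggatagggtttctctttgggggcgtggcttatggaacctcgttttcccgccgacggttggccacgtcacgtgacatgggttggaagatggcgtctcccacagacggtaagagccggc

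At the DUSP11 promoter the FOXA1dCTD summit lay at base 145 of the window and the FOXA2dCTD summit at base 189, and the match begins at base 222. The FOXA1dCTD peak had −log10 p values of 7.66 and 16.4 in its replicates, and the FOXA2dCTD peak 15.5 and 18.4. At RSRC1 the summits lay at bases 125 and 118, upstream of the start, with the match at base 29. EXPH5 has matches at bases 12 and 92, while its FOXA1dCTD summit lay at base 295 and its FOXA2dCTD summit at base 239. In none of these 3 promoters did a summit base fall within the letters. Summits are not exact to the base. At peaks found in both lists, replicate summits lay a median of 36 bp apart in FOXA1dCTD and 49 bp in FOXA2dCTD. The NEDD4 window (summit at base 5) and the LIN52 window (summit at base 58) hold none of the letters, which says only that these letters are not in those 300 bases.

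Peaks of the lists that had 1 bp or more in common were called shared. Of the FOXA1dCTD peaks, 22914 (45.7%, 95% Wilson interval 45.3 to 46.2) overlapped a FOXA2dCTD peak. Of the FOXA2dCTD peaks, 22919 (43.4%, 42.9 to 43.8) overlapped a FOXA1dCTD peak. The other list covered 1.20% and 1.12% of the same chromosomes, so sharing was far above the covered length. Covered length counts single bases, while sharing asks for 1 bp in common between whole peaks. The share for randomly placed peaks, which would be higher than the covered length, was not computed. Merging all peaks gave 79944 sites, of which 22806 (28.5%) carried both proteins and 57138 only one. At 22594 of the sites with both (99.1%) each protein had a single peak. These intervals, like all intervals below, cover counting error over peaks only. Each group has 1 list made from both replicates, so no test between the proteins over samples was possible, and neighbouring peaks are not independent.

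The deposited lists were cut at different limits of the irreproducible discovery rate (IDR), a measure of how well replicates agree on the rank of a peak. The weakest FOXA1dCTD peak had an IDR of 0.0501 and the weakest FOXA2dCTD peak 0.251. With a limit of 0.05 for both, 17689 FOXA2dCTD peaks were left beside 50105 FOXA1dCTD peaks, and the shared part became 24.2% of the FOXA1dCTD list and 68.1% of the FOXA2dCTD list. Both shares therefore move by over 1.5 times with the limit. Read depth was not used here. The median −log10 p in the replicate columns was 4.39 and 8.00 for FOXA1dCTD and 3.62 and 3.86 for FOXA2dCTD, and the rank correlation between the replicates of a list was 0.561 (n = 50105 peaks) and 0.350 (n = 52866 peaks), a description over peaks already chosen for agreement. The part of these list differences in the results below was not tested, except where a common limit or equal numbers of peaks are given.

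Sharing grew with the strength of a peak, taken as the lower of its −log10 p values in both replicates, the authors' own values used here only to rank peaks within a list. With each list divided by strength into 4 classes of equal size, from weakest to strongest, 31.2%, 38%, 46.1% and 67.6% of FOXA1dCTD peaks were shared. The same classes of the FOXA2dCTD list gave 24.9%, 31.0%, 45.6% and 71.9%. With 10 classes, the shares in the strongest reached 77.9% and 81.7%. The plot of sharing by strength shows the whole course.

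**Figure D1:**
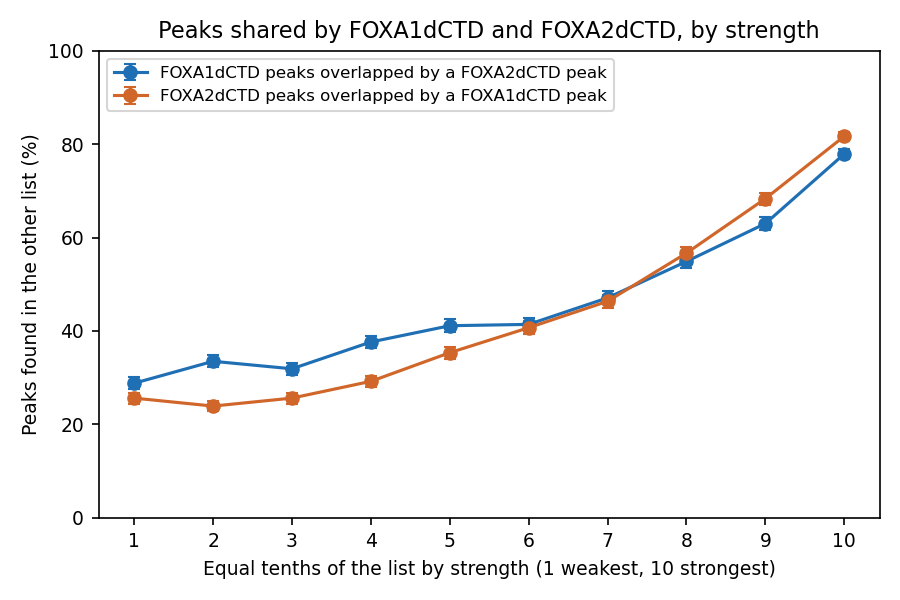
Percent of peaks overlapped by a peak of the other CTD-deleted list (vertical axis) in 10 classes of equal size of the FOXA1dCTD and FOXA2dCTD lists ordered by strength (horizontal axis, 1 weakest). Bars are 95% Wilson intervals; the share goes from 28.8% to 77.9% for FOXA1dCTD and from 25.6% to 81.7% for FOXA2dCTD.

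The strongest peaks of one protein were mostly in the list of the other, but seldom at its top. Of the 1000 strongest FOXA1dCTD peaks, 850 (85.0%, 82.7 to 87.1) were somewhere in the FOXA2dCTD list, and 256 (25.6%) overlapped one of its own 1000 strongest. Of the 1000 strongest FOXA2dCTD peaks, 844 (84.4%, 82.0 to 86.5) were in the FOXA1dCTD list. That leaves 150 FOXA1dCTD and 156 FOXA2dCTD peaks among the strongest 1000 with no overlapping peak of the paralog. Over all shared FOXA1dCTD peaks the rank correlation of strength between the paralogs was 0.348 (n = 22914). Between the replicates of a list, over all its peaks, the rank correlation of −log10 p was 0.561 for FOXA1dCTD and 0.350 for FOXA2dCTD. The part of replicate error in the unlike order of strong peaks was not tested. Of shared peaks in the strongest of the 4 FOXA1dCTD classes, 58.4% had a partner in the strongest FOXA2dCTD class and 8.08% a partner in the weakest.

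The site with the highest standing in both lists lies 13.4 kb from FAM86B2 on chromosome 8. Its −log10 p values were 71.8 and 89.3 in the FOXA1dCTD list, where it is ranked 1, and 39.5 and 55.8 in the FOXA2dCTD list, where it is ranked 3. The next is inside TTC28, a gene on chromosome 22 for a tetratricopeptide-repeat protein, with the FOXA1dCTD peak at chr22:28046082-28047041 and summits 1 bp apart. It had values of 50.9 and 80.3 for FOXA1dCTD and 38.3 and 71.2 for FOXA2dCTD. The site inside ADAMTS3, a gene for a procollagen-processing protease, at chr4:72399519-72401161, also had summits 1 bp apart, with values of 40.3 and 62.4 for FOXA1dCTD and 34.1 and 33.3 for FOXA2dCTD. The remaining 2 of the 5 highest lie inside EXD3 (chr9:137327637-137328506, summits 18 bp apart) and 0.447 kb from TAF11L6 (chr5:17529508-17529956, summits 5 bp apart). All 5 recur in the FOXA3dCTD list. The TTC28 site is absent from the FOXA2FL list and the EXD3 site from the FOXA1FL list.

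Among FOXA1dCTD peaks with no FOXA2dCTD overlap, the strongest (−log10 p 31.7 and 42.3) was at chr13:47028518-47029517, 131 kb from HTR2A, a serotonin receptor gene. It was ranked 66 of 50105, and the nearest FOXA2dCTD summit was 36.2 kb away. The next lay 627 kb from CDH10, a cadherin gene (28.4 and 59.1), and inside USP46, a deubiquitinase gene (24.6 and 59.9). Among FOXA2dCTD peaks with no FOXA1dCTD overlap, the strongest (33.2 and 44.4) was inside ARID5B, a gene for a DNA-binding protein of the AT-rich interaction family, at chr10:61936950-61938679. It was ranked 9 of 52866, and the nearest FOXA1dCTD summit was 25 kb away. The next was inside SLC35F1 (28.6 and 33.3). After it came a peak at chr22:14951120-14951566 (66.0 and 24.6), 577 kb from OR11H1 and 272 kb from the nearest FOXA1dCTD summit. Then followed a peak inside PTPRM, a receptor phosphatase gene (24.2 and 24.6). The ARID5B peak was present in the FOXA2FL list and absent from the FOXA1FL list. The HTR2A peak, by contrast, was in the FOXA2FL list and not in the FOXA1FL list, although FOXA2dCTD lacked it.

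At shared peaks the summits of the proteins lay close together. For single replicates the medians were above the distance between FOXA1dCTD replicates and on either side of that between FOXA2dCTD replicates. The median distance between combined summits was 35 bp (quartiles 16 and 69 bp, n = 22914), and 84.1% lay within 100 bp. Between the replicates of FOXA1dCTD at the same peaks it was 36 bp, with 86.2% within 100 bp. Between the replicates of FOXA2dCTD it was 49 bp, with 76.1% within 100 bp. A combined summit is the mean of the replicate summits, which lowers the distance between the lists, so single replicates were compared too. The 4 pairings of a FOXA1dCTD with a FOXA2dCTD replicate gave medians of 37, 42, 50 and 54 bp, all above the FOXA1dCTD value and 2 of them above the FOXA2dCTD value. Summits over 500 bp apart were found for 549 to 624 shared peaks (2.4% to 2.72%) over these pairings, against 1.14% and 2.18% between the replicates of FOXA1dCTD and FOXA2dCTD. With combined summits the number was 308 (1.34%).

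**Figure D2:**
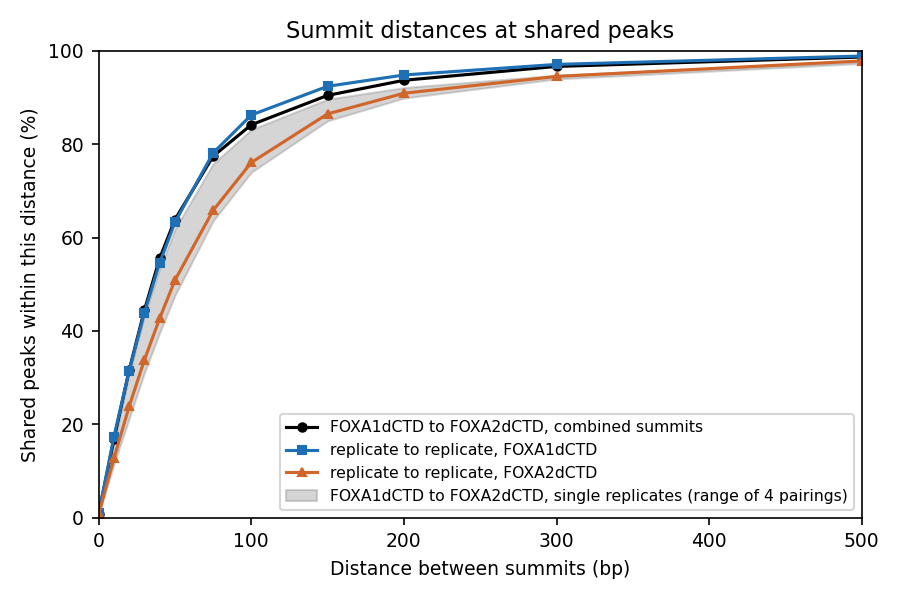
Cumulative percent of shared peaks (vertical axis) with summits within a given distance in bp (horizontal axis), between FOXA1dCTD and FOXA2dCTD and between replicates of each list. The line between paralogs, with a median of 35 bp, runs along the FOXA1dCTD replicate line (36 bp) and above the FOXA2dCTD replicate line (49 bp); combined summits are means of replicates, and the band spans the 4 pairings of single replicates.

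Peaks found in 1 list alone, which by definition overlap no peak of the other list, mostly lay kilobases from its summits. Signal below the limit of the other list was not examined, and no distance for random positions was computed. The 27191 peaks of FOXA1dCTD alone had a median of 15.7 kb to the nearest FOXA2dCTD summit, and 36.9% had one within 10 kb. For the 29947 peaks of FOXA2dCTD alone these values were 16.9 kb and 34.8%. They were narrower than shared peaks, with median widths of 582 and 560 bp against 676 and 694 bp. Their replicate summits were nearly as close as those of shared peaks, at medians of 38 bp in FOXA1dCTD and 52 bp in FOXA2dCTD.

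Both proteins placed nearly the same share of peaks inside genes, but FOXA2dCTD had more at gene starts. The summit was inside a protein-coding gene for 44.8% of FOXA1dCTD and 45.0% of FOXA2dCTD peaks. For peaks of 1 list alone these shares were 43.5% and 43.9%, a difference (FOXA1dCTD minus FOXA2dCTD) of -0.46 percentage points (95% Newcombe interval -1.27 to 0.36), and shared peaks stood at 46.4%. With an IDR limit of 0.05 for both lists this difference turned to 3.00 points (1.62 to 4.37).

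Within 1 kb of the transcription start of a protein-coding gene lay 655 FOXA1dCTD peaks (1.40%) and 1604 FOXA2dCTD peaks (3.24%). Shares relative to starts leave out chromosome 8, whose starts are not in the table used. Among peaks of 1 list alone there were 259 (1.02%) for FOXA1dCTD and 1192 (4.25%) for FOXA2dCTD, a difference of -3.23 points (-3.50 to -2.96). Shared peaks lay between them, at 1.85%. Either end of a protein-coding gene takes in the starts again, so it is not a separate location, and the far ends alone were not examined. By this wider measure 2.00% of FOXA1dCTD-only and 5.31% of FOXA2dCTD-only peaks lay within 1 kb, a difference of -3.31 points (-3.61 to -3.01). With IDR 0.05 as the limit that difference was -4.00 points, and among the 10000 strongest peaks of each list it was -3.71 points.

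The full-length pair differed less. Within 1 kb of a start lay 4.60% of FOXA1FL and 4.12% of FOXA2FL peaks, so as deposited FOXA1dCTD stood apart from the other 3 lists. It is also the only one of these lists that an IDR limit of 0.05 leaves whole. That limit leaves 17689 FOXA2dCTD, 11445 FOXA1FL and 1866 FOXA2FL peaks. Full-length shares at starts were not taken at this limit, so the part of the limit in the low FOXA1dCTD share was not tested. Over the 4 classes of strength, from weakest to strongest, the FOXA1dCTD share was 1.71%, 1.62%, 1.38% and 0.879%, and that of FOXA2dCTD 3.36%, 3.01%, 3.45% and 3.16%. Over the same classes FOXA1FL had 7.69%, 4.12%, 3.70% and 2.91%, and FOXA2FL 4.39%, 4.79%, 4.18% and 3.12%. FOXA1FL was thus above FOXA2FL in the weakest class and below it in the other 3, where the intervals of both overlapped. The difference between the CTD-deleted proteins was thus present in each of the 4 classes. These classes are ranks within a list and span unlike −log10 p values. The weakest spans 2.44 to 3.45 for FOXA1dCTD and 2.09 to 2.42 for FOXA2dCTD. Of the 1192 start peaks of FOXA2dCTD alone, 37.8% recurred in the FOXA1FL list and 41.4% in the FOXA2FL list.

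**Figure D3:**
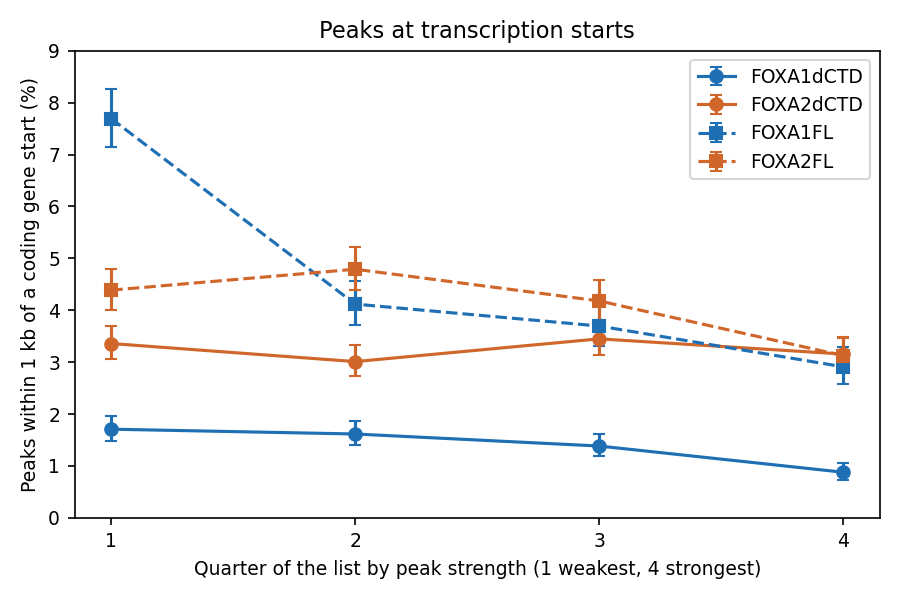
Percent of peaks within 1 kb of a protein-coding transcription start (vertical axis) in 4 equal classes of each list by strength (horizontal axis, 1 weakest), for the CTD-deleted (solid) and full-length (dashed) proteins, with 95% Wilson intervals. FOXA1dCTD is the lowest in every class, from 1.71% to 0.879%, while FOXA2dCTD stays between 3.01% and 3.45%.

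Far from genes the order was the other way round. A distance of over 100 kb to the nearest protein-coding start was found for 54.6% of FOXA1dCTD-only and 44.7% of FOXA2dCTD-only peaks, a difference of 9.91 points (9.06 to 10.7). The median distance was 124 kb and 79.1 kb, with shared peaks at 90.8 kb. Over whole lists it was 106 kb for FOXA1dCTD, 84.0 kb for FOXA2dCTD, 80.3 kb for FOXA1FL and 82.4 kb for FOXA2FL.

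The ratio of FOXA1dCTD to FOXA2dCTD peaks followed gene density. Outside the longest gene-free stretch of each chromosome, 1 Mb windows with no protein-coding gene held 5289 FOXA1dCTD and 4145 FOXA2dCTD peaks, a ratio of 1.28 (1.23 to 1.33), or 1.17 (1.13 to 1.21) with those stretches included. With 1 to 2 genes the ratio was 1.13, with 3 to 5 genes 0.942, with 6 to 10 genes 0.859 and with 11 to 20 genes 0.782. In windows with over 20 genes there were 2008 and 2782 peaks, a ratio of 0.722 (0.682 to 0.764). For peaks of 1 list alone the ratio went from 1.54 to 0.566 over the same windows. The full-length pair as deposited showed no such course, with ratios between 0.844 and 0.893 in all 6 classes of window. Its ratios were not taken at stricter IDR limits or with equal numbers of peaks. The ratio follows list size, so at an IDR of at most 0.05 it was above 1 even in windows with over 20 genes (2.21). The first ratio divided by the last was 1.77 as deposited, 1.82 at an IDR of at most 0.05, 1.82 at 0.01, 1.86 among the 10000 strongest peaks of each list and 1.62 with the stretches.

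**Figure D4:**
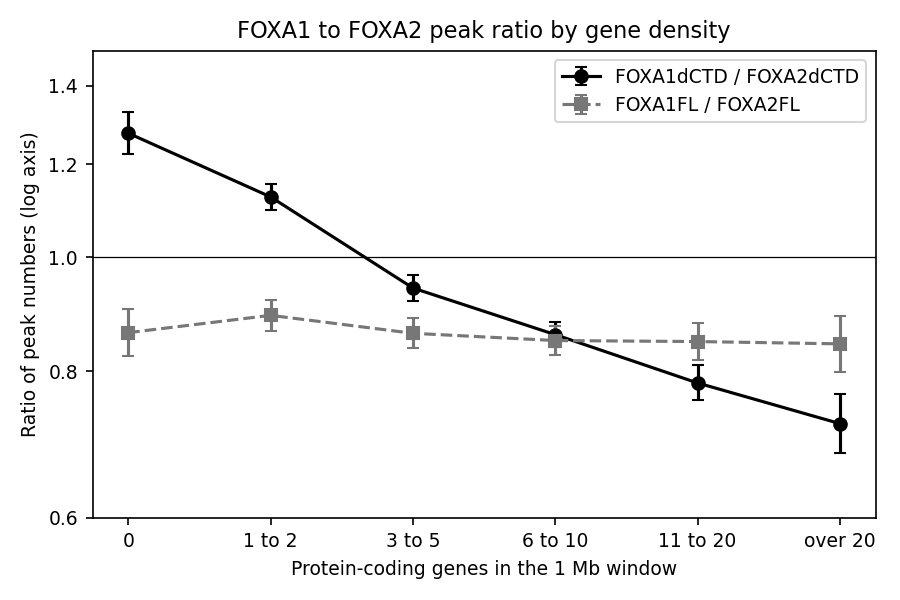
Ratio of FOXA1 to FOXA2 peak numbers (vertical log axis) in 1 Mb windows grouped by their number of protein-coding genes (horizontal axis), for the CTD-deleted and the full-length pair, outside gene-free stretches, with 95% intervals from counting error. The CTD-deleted ratio runs from 1.28 to 0.722 and the full-length ratio stays between 0.844 and 0.893.

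By chromosome, outside the longest gene-free stretch of each, the ratio was highest on X (733 to 564 peaks, 1.30) and on chromosome 5 (3398 to 2930, 1.16), and above 1 on 7 of 23 chromosomes. It was lowest on chromosome 22 (624 to 1255, 0.497) and on chromosome 19 (179 to 256, 0.699), the chromosome richest in genes. On chromosomes 14, 21 and 22 the stretch held 0 peaks of either CTD-deleted list, so nothing was taken out there. The part of other gene-poor sequence in the chromosome 22 ratio was not tested. Chromosome 22 was also the lowest for the full-length pair (709 to 1123, 0.631), whereas chromosome 19 had more FOXA1FL than FOXA2FL peaks (256 to 227). Across the 23 chromosomes the rank correlation of the ratio with protein-coding genes per Mb was -0.55 for the CTD-deleted and 0.318 for the full-length pair, a description of points that share their libraries.

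The longest gene-free stretch of a chromosome, which on most holds the centromere, carried 1310 FOXA1dCTD peaks (2.61%) and 1614 FOXA2dCTD peaks (3.05%). At an IDR of at most 0.05 the FOXA2dCTD share was 4.63%. Fewer of these peaks were shared than elsewhere, 26.9% against 46.2% of FOXA1dCTD and 21.9% against 44.0% of FOXA2dCTD peaks. The balance between the proteins differed from chromosome to chromosome. In the stretch of chromosome 1 FOXA1dCTD had 838 peaks and FOXA2dCTD 241, and in that of chromosome 13 they had 322 and 71. FOXA2dCTD had 239 peaks in the stretch of chromosome 19 where FOXA1dCTD had 0, 229 against 12 on chromosome 5, 214 against 50 on chromosome 4, 181 against 4 on chromosome 18 and 140 against 14 on chromosome 11. The full-length lists differed in the same direction in all 7 stretches, for example 466 FOXA1FL and 237 FOXA2FL peaks on chromosome 1, and 0 and 220 on chromosome 19. Reads from repeats can be placed in more than one way, and how the authors treated them is not given in the sources used here. The FOXA1 lists were deposited with the series and the FOXA2 lists with a sample, so paralog and form of deposit cannot be told apart in these stretches.

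The 6 windows of 1 Mb with the largest excess either way all lie in these stretches. At chr1:123000001-124000000 there were 349 FOXA1dCTD and 91 FOXA2dCTD peaks, and in the next window 332 and 108. At chr13:17000001-18000000 the numbers were 185 and 48. The reverse held at chr19:26000001-27000000 (0 and 124), chr5:48000001-49000000 (0 and 90) and chr4:50000001-51000000 (17 and 102). Outside the stretches the shared part was 46.2% and 44.0% of the lists, close to the values over all peaks.

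A peak was counted for a gene when its summit lay in the gene or within 10 kb of it. Of 19974 protein-coding genes, 7641 (38.3%) had peaks of both proteins, 1518 (7.6%) of FOXA1dCTD alone and 2806 (14%) of FOXA2dCTD alone, and 8009 had neither. At least 1 FOXA1dCTD peak was found for 45.9% and at least 1 FOXA2dCTD peak for 52.3% of genes. With an IDR limit of 0.05 for both lists the order of the 1-list counts turned, with 4145 genes for FOXA1dCTD alone and 692 for FOXA2dCTD alone. Of the genes with both, 6317 (82.7%) had at least 1 shared site and 1324 had peaks of both proteins at different sites only. The part with both grew with gene length, from 14.1% of genes up to 10 kb to 91.4% of genes over 300 kb. Genes with peaks of 1 protein alone mostly had a single peak, 81.8% of those for FOXA1dCTD and 75.9% of those for FOXA2dCTD.

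The genes with the most peaks of both proteins are long. PCDH15, a protocadherin of sensory hair cells, had 97 FOXA1dCTD and 82 FOXA2dCTD peaks, of which 40 and 41 were shared. EYS, a photoreceptor gene, had 83 and 80, and PRKG1, a cGMP-dependent kinase gene, 60 and 61. LINGO2 had 62 and 60 peaks, and DLG2, a postsynaptic scaffold gene, 70 and 57. The FOXA1 and FOXA2 genes themselves had no peak of either CTD-deleted protein in the body or within 10 kb, and the FOXA1 gene had 1 peak in the FOXA1FL list.

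The largest excess of FOXA1dCTD peaks was in CADM2, a synaptic adhesion gene, with 56 peaks against 30, while the full-length lists had 31 and 28. CTNNA3, an alpha-catenin gene, had 88 against 67 (full length 52 and 58). Among cadherin genes, CDH18 had 57 against 36 and CDH12 44 against 28. TBC1D5, a regulator of endosomal Rab proteins, had 28 against 11, CSMD3 50 against 35, and SGCZ, a sarcoglycan gene, 41 against 26. In these 8 genes, counting PCDH15, the full-length pair had fewer FOXA1FL than FOXA2FL peaks, except in CADM2 and CDH12, where FOXA1FL had 3 more.

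The largest excess of FOXA2dCTD peaks was in TTC28, with 71 against 36, and here the full-length pair had 59 FOXA2FL and 33 FOXA1FL peaks. The gene lies on chromosome 22, where FOXA2dCTD had more peaks overall. RBFOX1, a splicing regulator gene, had 31 FOXA2dCTD and 12 FOXA1dCTD peaks (full length 23 and 11), and ASAP1, a gene for an Arf GTPase-activating protein, 29 and 12 (full length 13 and 7). SDK1, an adhesion gene, had 69 and 42, DLGAP1, a postsynaptic scaffold gene, 55 and 36, and PARD3, a cell polarity gene, 49 and 34. RORA, a nuclear receptor gene, had 38 FOXA2dCTD and 23 FOXA1dCTD peaks, and PTPRM 36 and 21. In DLGAP1, PARD3 and RORA the full-length pair had 1 to 5 more peaks of FOXA1FL, and in PTPRM it had 14 of each. All named genes with an excess are between 392 kb (ASAP1) and 2474 kb (RBFOX1) long, so a peak number says little of any 1 site.

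Genes with several peaks of 1 protein and none of the other were few. SBNO1 and TECRL had 6 FOXA1dCTD peaks each and ANO4 and SESTD1 5 each, with no FOXA2dCTD peak. All 4 had FOXA2FL peaks (3 to 8). NFATC1, a calcineurin-dependent transcription factor gene, and SHANK2, a postsynaptic scaffold gene, had 7 FOXA2dCTD peaks each, and HIC2, a transcriptional repressor gene, and KDM2B, a histone demethylase gene, 6 each, with no FOXA1dCTD peak. NFATC1 had 2 FOXA1FL peaks, SHANK2 2 and KDM2B 3. HIC2 had no FOXA1FL peak and 1 FOXA2FL peak. These 8 genes were chosen for their counts after the values were seen.

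Counting the full-length lists as well, 282 genes (1.41% of protein-coding genes) had peaks in both FOXA1 lists and neither FOXA2 list, and 636 (3.18%) in both FOXA2 lists and neither FOXA1 list. In all 4 lists 5883 genes (29.5%) had peaks. TEAD4, a DNA-binding partner of YAP, leads the FOXA2 group with 3 FOXA2dCTD and 7 FOXA2FL peaks. PLD5 and TGFBRAP1, a TGF-beta receptor-associated gene, lead the FOXA1 group with 4 FOXA1dCTD and 2 FOXA1FL peaks each. These were named after their values were seen.

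Genes of the tissues in which FOXA proteins act were read against the shares over all protein-coding genes (38.3% both, 7.6% FOXA1dCTD alone, 14% FOXA2dCTD alone). Of 25 regulators of definitive endoderm and gut, 11 had peaks of both proteins, 1 of FOXA1dCTD alone and 2 of FOXA2dCTD alone. HNF4A, a liver and gut nuclear receptor gene, had 4 FOXA1dCTD and 5 FOXA2dCTD peaks, with 4 shared. GATA6 had 2 and 3, and SOX9, 1 and 4. KIT, a receptor tyrosine kinase gene that marks definitive endoderm, had 3 FOXA2dCTD peaks and no FOXA1dCTD peak. With 44.0% of members in both lists the group stood near the background.

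Of 30 genes of hepatocyte secretion and metabolism, 12 had peaks of both, 6 of FOXA1dCTD alone and 1 of FOXA2dCTD alone. APOB, the main protein of low-density lipoprotein, had 2 FOXA1dCTD and 4 FOXA2dCTD peaks, with both FOXA1dCTD peaks shared. CPS1, the first enzyme of the urea cycle, had 4 and 1 at different sites. AFP, the fetal serum protein, had 2 FOXA1dCTD peaks and no FOXA2dCTD peak, and CYP3A4 and FGG had 1 FOXA1dCTD peak each. The part with FOXA1dCTD alone, 20.0%, compares with 7.6% over all genes, on 6 genes.

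Of 28 genes of luminal breast and prostate cells, 13 had peaks of both, 1 of FOXA1dCTD alone and 6 of FOXA2dCTD alone. ESR1, the oestrogen receptor gene, had 12 FOXA1dCTD and 11 FOXA2dCTD peaks, of which 5 were shared. PGR, the progesterone receptor gene, had 5 of each with 4 shared, and the full-length lists had 2 and 0. MYB had 3 FOXA1dCTD peaks alone, and STEAP2, a metalloreductase gene, 3 FOXA2dCTD peaks alone. GATA3 and KRT18 had 1 FOXA2dCTD peak each.

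Among 25 osteoblast and mesenchymal genes, which are genes of the lineage of the host cell, 12 had peaks of both, 2 of FOXA1dCTD alone and 3 of FOXA2dCTD alone. CDH2, N-cadherin, had 6 FOXA1dCTD and 2 FOXA2dCTD peaks. COL5A1, a fibrillar collagen gene, had the reverse, 3 and 8. Of 26 AP-1 and YAP-TEAD genes, 15 (57.7%) had peaks of both, 1 of FOXA1dCTD alone and 4 of FOXA2dCTD alone. YAP1 had 4 FOXA1dCTD and 5 FOXA2dCTD peaks, WWTR1, which encodes TAZ, 6 and 5, and MAFK 4 and 5 with 4 shared. MAFF had 2 FOXA2dCTD and 2 FOXA2FL peaks, with none in the FOXA1 lists.

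Of 35 other forkhead genes, 13 had peaks of both, 3 of FOXA1dCTD alone and 9 of FOXA2dCTD alone. FOXP1 had 13 FOXA1dCTD and 16 FOXA2dCTD peaks, FOXP2 13 and 7, FOXJ3 7 and 12, and FOXK1 1 and 5. Of 41 cytosolic ribosomal protein genes, short genes used in every cell, 6 (14.6%) had peaks of both, 2 of FOXA1dCTD alone and 7 of FOXA2dCTD alone. RPL14 and RPLP1 had 1 FOXA1dCTD and 3 FOXA2dCTD peaks each. The lists differ in gene length, with medians from 4.52 kb for ribosomal genes to 36.2 kb for mesenchymal genes against 24.2 kb for all protein-coding genes. At an IDR of at most 0.05 the members with both proteins fell in number to 6 in the endoderm, 6 in the hepatocyte and 7 in the mesenchymal list. They numbered 10 in the luminal, 14 in the AP-1 and YAP-TEAD, 11 in the forkhead and 5 in the ribosomal list. Over all 19974 protein-coding genes the number with both fell from 7641 to 5014.

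The full-length lists had no part in choosing the classes of peak. Of shared peaks, 53.7% recurred in the FOXA1FL list and 66.9% in the FOXA2FL list. Of FOXA1dCTD-only peaks, 31.6% (31.0 to 32.1) recurred in FOXA1FL and 27.4% (26.9 to 27.9) in FOXA2FL. Of FOXA2dCTD-only peaks, 15.2% (14.8 to 15.6) recurred in FOXA1FL and 25.1% (24.6 to 25.6) in FOXA2FL. Each class of 1 protein alone was thus met more often in the full-length list of the same paralog. Both FOXA1 lists were deposited with the series and both FOXA2 lists with a sample, so here paralog and form of deposit cannot be told apart. The FOXA2FL list is the longer one (44637 against 37219 peaks), and shared peaks also recurred more in it. A majority of these peaks were in neither full-length list, 54.3% for FOXA1dCTD alone and 67.2% for FOXA2dCTD alone, against 20.5% of shared peaks.

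**Figure D5:**
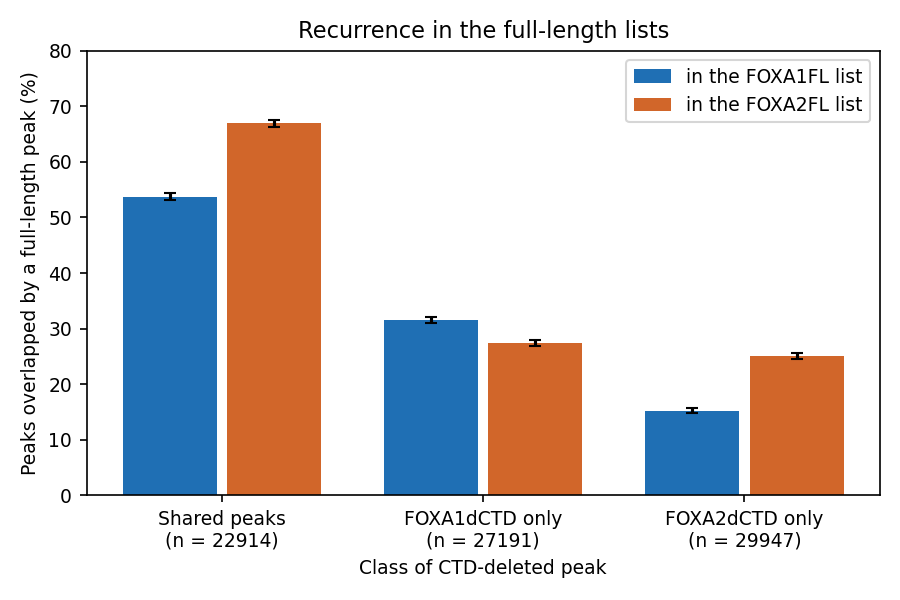
Percent of shared, FOXA1dCTD-only and FOXA2dCTD-only peaks overlapped by a peak of the FOXA1FL or FOXA2FL list (vertical axis), with 95% Wilson intervals. FOXA1dCTD-only peaks recur slightly more in FOXA1FL (31.6% against 27.4%) and FOXA2dCTD-only peaks more in FOXA2FL (25.1% against 15.2%).

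Counting only peaks that recurred in a single full-length list, FOXA1dCTD-only peaks were found 4990 times in FOXA1FL and 3849 times in FOXA2FL, a ratio of 1.30 (1.24 to 1.35). FOXA2dCTD-only peaks gave 2329 and 5272, a ratio of 0.442 (0.421 to 0.464), close to that of shared peaks, 0.487 (0.466 to 0.510). With equal numbers of full-length peaks the order held, with FOXA1dCTD-only peaks at 31.6% and 23% and FOXA2dCTD-only peaks at 15.2% and 21.9%. With an IDR limit of 0.05 in the CTD-deleted lists, FOXA1dCTD-only peaks recurred alike in FOXA1FL and FOXA2FL (35.1% and 34.7%). With that limit in the full-length lists, 1866 FOXA2FL peaks were left beside 11445 of FOXA1FL, and the order for FOXA2dCTD-only peaks turned (3.72% in FOXA1FL and 0.745% in FOXA2FL). In the strongest of the 4 classes, 52.5% of FOXA1dCTD-only peaks were in FOXA1FL and 47.5% in FOXA2FL, while 31.7% of FOXA2dCTD-only peaks were in FOXA1FL and 55.4% in FOXA2FL. The FOXA3dCTD list, with 6763 peaks, overlapped 16.9% of shared peaks but 2.98% of FOXA1dCTD-only and 4.77% of FOXA2dCTD-only peaks.

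Forkhead letters were more common in promoters that held a summit. Of 15812 protein-coding promoter windows of 300 bases, 900 (5.69%) held TGTTTAC or TGTTTGC on either strand. The share was 15 of 65 windows (23.1%, 14.5 to 34.6) with a summit of both lists, 8 of 51 (15.7%, 8.17 to 28.0) with a FOXA1dCTD summit alone and 74 of 334 (22.2%, 18 to 26.9) with a FOXA2dCTD summit alone, and the 3 intervals overlap. Windows with no summit stood at 5.23%. Windows with a summit of either list were less rich in G and C, at a mean of 53.1% for both, 54.8% for FOXA1dCTD alone and 59.1% for FOXA2dCTD alone against 61.5% for the rest, and the part of base composition in the share with the letters was not tested.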

How the data were processed

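Each group had 1 combined list in the 20-column layout of the IDR program, made by the authors from both replicates. The FOXA2dCTD and FOXA2FL lists were deposited with a sample, and the lists of the other groups with the series. Per the submitters' processing notes the build is hg38 and the tools named are FastQC 0.10.1, Trim Galore, Bowtie2 2.4.4, SAMtools 0.1.18, MACS2 and deepTools 2.4.1; their settings and roles, and the control used for peaks, are not given in the sources used here. The deposited columns used were the score (125 times log2 of 1 over the IDR), the −log10 p of the authors in each replicate, and the summit positions. These columns carry no replicate number. Reads and coverage were not used, so the depth is unknown. Chromosome Y and other contigs were left out of the comparisons.

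The combined summit is the mean of both replicate summits, and strength is the lower of both −log10 p values. Overlap was by at least 1 bp. Genes came from the RefSeq GRCh38.p14 gene table (59098 genes, 19974 protein-coding), transcription starts and promoter sequences from the RefSeq promoter table of that build, without chromosome 8. Shares have 95% Wilson and differences Newcombe intervals, computed in Python 3.11.15 with pandas 2.3.3, numpy 2.4.6 and statsmodels 0.14.6. The overlap code was checked on simulated peaks. The members and the gene lists (7 lists, 210 genes) were chosen with earlier results of these data known. Named were the 8 genes with the largest excess of peaks either way and the 8 with the most peaks in the lower of both lists. Of each gene list, up to 4 members with the most peaks and up to 4 with peaks of 1 list alone could be named. Some genes that these rules name are not reported here. Peaks were the 5 highest shared and the 5 strongest of each list alone, and windows the 3 with the largest excess either way. Promoters were the 3 highest with summits of both lists and forkhead letters, and the strongest with a summit of each list alone. Alternatives were stricter IDR limits, other overlap rules, distances and gene sets, equal numbers of peaks and single-replicate summits.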

Additional observations from a re-analysis of the deposited data

Results flagged for a closer look

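Peaks on chromosome Y and on contigs outside chromosomes 1 to 22 and X were in no comparison. The FOXA1dCTD list held 434 of them (0.859% of its 50539 peaks) on 152 contigs, 2 on chromosome Y, and 49.1% were shared. The FOXA2dCTD list held 549 (1.03% of 53415) on 176 contigs, 5 on chromosome Y, and 38.6% were shared. They were singled out because they are signal in data outside the comparisons, and no control list was available to set them against.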

How the results depend on the processing

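No paired analysis was possible because each group has 1 list combined from its replicates, and the columns carry no replicate number; leaving out a replicate was possible only for summit distances, as single-replicate summits. Of 108 alternatives for 28 results, 34 kept the value, 72 moved it further, and 2 turned a ratio across 1. A value was kept when it stayed within its error. For counts, and for the first window ratio divided by the last, which has no interval, the limit was 1.5 times. Stricter IDR limits also turned the order of the 1-list gene counts, of the recurrence of FOXA2dCTD-only peaks, and the sign of the difference inside genes, whose interval had included 0. The common IDR limits change most values because the FOXA2dCTD list shrinks to 17689 peaks at 0.05 and 6460 at 0.01, beside 50105 and 26624 of FOXA1dCTD. Depth is unknown and could not be matched.

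The shared part of the FOXA1dCTD list, 45.7% as deposited, was 24.2% at an IDR of at most 0.05, 17.4% at 0.01, 41.2% with 50% reciprocal overlap, 38.5% with summits within 100 bp, 44.4% with equal numbers of the strongest peaks, 37.9% among the 10000 strongest and 46.2% outside the gene-free stretches. That of the FOXA2dCTD list was 68.1%, 71.5%, 39.1%, 36.5%, 44.4%, 37.9% and 44.0% in the same order. The median summit distance was 31 bp at an IDR of at most 0.05, 27 bp at 0.01, and 54, 42, 50 and 37 bp between single replicates.

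The difference in the share within 1 kb of either gene end, starts included (FOXA1dCTD minus FOXA2dCTD), kept its sign under every alternative run. For whole lists it was -2.80 points with 2.5 kb, -2.59 with all annotated genes and -2.30 among the 10000 strongest peaks. For peaks of 1 list alone it was -4.00 at an IDR of at most 0.05, -4.53 at 0.01, -5.00 with 2.5 kb, -4.63 with all annotated genes and -3.71 among the 10000 strongest. The difference in the share inside genes was 3.00 points at an IDR of at most 0.05. The share in gene-free stretches was 3.20% for FOXA1dCTD at 0.01, and 4.63% and 6.32% for FOXA2dCTD at 0.05 and 0.01.

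The ratio of peaks in windows with no coding gene was 4.02 at an IDR of at most 0.05, 6.17 at 0.01, 1.40 among the 10000 strongest and 1.17 with the gene-free stretches. In windows with over 20 genes it turned from below to above 1, at 2.21 with 0.05 and 3.39 with 0.01, as the FOXA2dCTD list became the shorter one. At 0.05, 5014 genes had both proteins, 4145 FOXA1dCTD alone and 692 FOXA2dCTD alone. At 0.01 these numbers were 2337, 4063 and 340, with 13234 genes having neither. With the gene body alone 1836 genes had FOXA2dCTD alone, and with 50 kb on each side 12614 had both and 3450 neither. Members with both proteins numbered 6 in the endoderm, 6 in the hepatocyte and 7 in the mesenchymal list at 0.05, and 5 in the hepatocyte and 3 in the ribosomal list with the gene body alone. At 0.05 the luminal, AP-1 and YAP-TEAD, forkhead and ribosomal lists had 10, 14, 11 and 5.

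Recurrence in FOXA1FL and FOXA2FL was 26.9% and 6.45% for shared, 10.4% and 0.496% for FOXA1dCTD-only and 3.72% and 0.745% for FOXA2dCTD-only peaks with an IDR of at most 0.05 in the full-length lists. With 50% reciprocal overlap it was 48.0% and 59.5%, 27.6% and 23.5%, and 12% and 20.1%. With an IDR of at most 0.05 in the CTD-deleted lists it was 62.6% and 79.1%, 35.1% and 34.7%, and 28.8% and 50.3%. With equal numbers of full-length peaks, the FOXA2FL values were 63.5%, 23% and 21.9%. The alternatives using the 10000 strongest peaks, single replicates, equal numbers of full-length peaks, windows, and the regions inside or outside gene-free stretches were chosen after the data were seen.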
